A study of Mus musculus with 6 samples.

Results

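A set of 6 genes best known from lymphocytes and natural killer cells, Il7r, Il2ra, Cd4, Klrb1c, Cd22 and Ighm, was described in macrophages sorted from atherosclerotic mouse aorta. They are 6 of the 41388 genes in the deposited tables and 6 of the 11303 that passed a filter on low counts. The 6 genes were chosen by name with their values in the compared libraries already known, so their levels and differences are given as a description, with no test. Foamy macrophages were live cells with high BODIPY493/503 signal, a stain of neutral lipid, and high side scatter, and non-foamy macrophages were live cells low in both measures. All libraries came from the intimal layer of aortas of C57BL/6 mice of the genotype ApoE -/-, which had eaten a Western diet for 28 weeks, and all cells were sorted as CD64+CD11b+. The study used 6 mice and made 3 bulk RNA-seq libraries of each population. Which mice went into which library, and their age, are not given in the sources at hand. A p-value therefore covers nothing beyond the spread between these particular libraries, part of which may be technical.

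Il7r and Il2ra encode the alpha chains of the receptors for interleukin-7 and interleukin-2, and both receptors contain the common gamma chain Il2rg and signal through JAK kinases and STAT5. CD4 is the coreceptor of helper T cells for MHC class II and is also found on some mouse myeloid cells and many human macrophages, and Klrb1c encodes the NK1.1 antigen by which natural killer cells of C57BL/6 mice are recognised. CD22 is a sialic acid-binding lectin (a Siglec) that restrains the B cell receptor, and Ighm encodes the heavy chain of immunoglobulin M. None of these proteins was part of the sorting gate.

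The 3 foamy libraries held 18592421 to 24279802 counts in genes and the 3 non-foamy libraries 15628627 to 24619075. Genes with at least 1 count numbered 15595 to 17757 per foamy library and 19380 to 24701 per non-foamy library. A floor of 3 counts corresponded to 0.124 to 0.161 CPM in foamy cells and 0.122 to 0.192 CPM in non-foamy cells (CPM, counts scaled to a fixed library size). These floor values use total counts alone, while the CPM values of genes carry TMM factors as well. Floors and counting intervals cover counting error only. All 14 macrophage identity genes passed the filter, as did 11303 genes in all, so passing it does not test the macrophage label. Fcgr1, which encodes CD64, stood between 184 and 273 CPM in foamy cells and between 129 and 235 CPM in non-foamy cells. Itgam, which encodes CD11b, stood between 70.3 and 85.9 CPM in foamy cells and between 127 and 151 CPM in non-foamy cells. Apoe, the gene disrupted in all of these mice, averaged 4.96 ± 1.78 CPM in foamy cells and 4.45 ± 1.66 CPM in non-foamy cells (SD, n = 3 each), and wild-type libraries were not analysed here.

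Il2ra was under the floor of 3 counts in foamy replicates 1 and 2, and Klrb1c was under it in every non-foamy library. Each was above the floor in every library of the opposite population. For this reason the promoters of this pair, the members with the fewest reads in foamy and in non-foamy cells, are shown. Both are RefSeq windows on GRCm38.p6, printed 5′ to 3′ on the gene's strand up to its annotated start, at chr2:11642542-11642791 on the plus strand for Il2ra and at chr6:128788642-128788886 on the minus strand for Klrb1c. The Klrb1c window lies inside the span that the deposited tables give for the gene, and 5 of its 250 bases, in an annotated exon, are left out. Capitals mark AGGAAG, a core that factors of the ETS family such as PU.1 can bind, or its complement, and GGGA and CC with any 4 bases between them, a form of the NF-kB motif.
Il2ra: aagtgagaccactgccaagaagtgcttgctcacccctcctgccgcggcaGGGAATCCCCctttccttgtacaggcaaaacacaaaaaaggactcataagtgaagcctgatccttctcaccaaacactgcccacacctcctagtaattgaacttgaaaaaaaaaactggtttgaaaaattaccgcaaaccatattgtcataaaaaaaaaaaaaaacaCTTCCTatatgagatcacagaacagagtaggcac
Klrb1c: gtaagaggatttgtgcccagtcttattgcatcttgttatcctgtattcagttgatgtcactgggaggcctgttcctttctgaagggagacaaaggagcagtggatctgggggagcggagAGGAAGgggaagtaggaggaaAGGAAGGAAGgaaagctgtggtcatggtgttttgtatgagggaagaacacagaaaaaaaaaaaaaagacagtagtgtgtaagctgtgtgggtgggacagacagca
Within the 250 bases before the start, the Il2ra window held 1 AGGAAG, on the other strand, and 1 NF-kB form, while the Klrb1c window held 3 AGGAAG matches on the gene's strand, the last pair overlapping each other. The Il7r window held 1 AGGAAG and the Cd22 window neither motif, and no match of one motif overlapped a match of the other. Of 32851 such windows of all genes, 29.5% held AGGAAG and 17.6% held the NF-kB form on either strand. These matches describe letters in a window and were not tested as binding sites. RefSeq windows were matched for 4 of the 6 genes, and Cd4 and Ighm are named only.

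The 6 genes went in opposite directions. Il7r, Cd4, Klrb1c and Cd22 were higher in foamy macrophages, and Ighm and Il2ra were higher in non-foamy macrophages. Among all tested genes, edgeR called 5.41% at an adjusted p of 0.05, 2.50% higher and 2.90% lower in foamy libraries, and all 6 members were among those called, 4 higher and 2 lower. The ranges of the foamy and non-foamy libraries did not overlap in 25.7% of tested genes, nor in any of the 6 members. Since the members were chosen on this same contrast, nothing is read from either count. The log2 fold change of foamy over non-foamy ran among the members between -6.02 and 5.47, while its median over all tested genes was -0.04. With total counts as the only scaling that median was -0.31, and the direction of each member stayed as given.

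**Figure D1:**
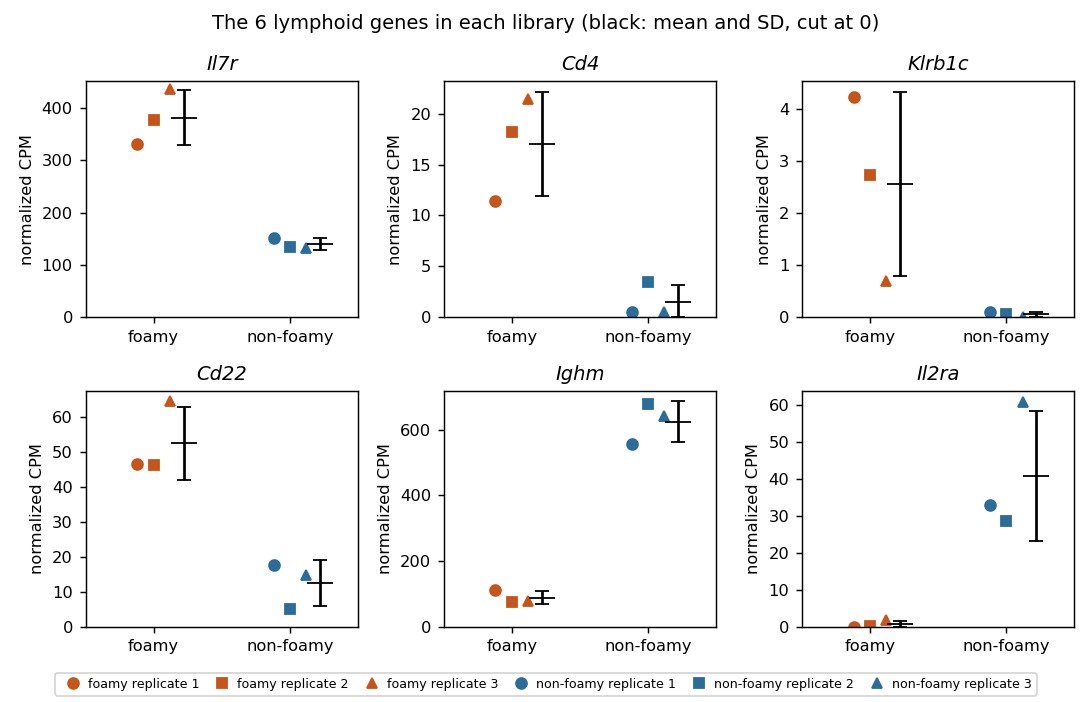
TMM-normalized CPM of each member (vertical axis, linear from 0) in each library, with foamy libraries left of non-foamy libraries; points are libraries and black bars the mean and SD of 3, cut at 0. The foamy and non-foamy points occupy separate ranges for each of the 6 genes, and Il2ra in foamy and Klrb1c in non-foamy libraries lie at or near 0.

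Abundance was compared between genes on the deposited RPKM scale (CPM per kilobase of gene), which accounts for length. In foamy libraries Il7r stood highest at 108.5 ± 17.0 RPKM, followed by Ighm at 54.2 ± 9.37 and Cd22 at 9.57 ± 1.83 RPKM (mean ± SD, n = 3). Cd4 at 3.87 ± 1.23, Klrb1c at 0.780 ± 0.521 and Il2ra at 0.112 ± 0.176 RPKM completed the foamy order. Of these neighbours, the ranges of Klrb1c and Il2ra overlapped and those of the other pairs did not. In non-foamy libraries Ighm led at 459.5 ± 28.2 RPKM, ahead of Il7r at 47.9 ± 7.16 and Il2ra at 8.64 ± 3.27 RPKM. Cd22 at 2.79 ± 1.57, Cd4 at 0.402 ± 0.455 and Klrb1c at 0.0211 ± 0.0216 RPKM came after them, with no overlap between neighbours. Set among all tested genes by mean RPKM, Il7r was at percentile 95.4 in foamy cells and 90.2 in non-foamy cells, and Ighm at percentile 92.0 in foamy cells and 98.8 in non-foamy cells. Both were therefore among the more abundant transcripts of either population, while Klrb1c, at percentile 24.97 in foamy cells and 0.0531 in non-foamy cells, was scarce in each.

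**Figure D2:**
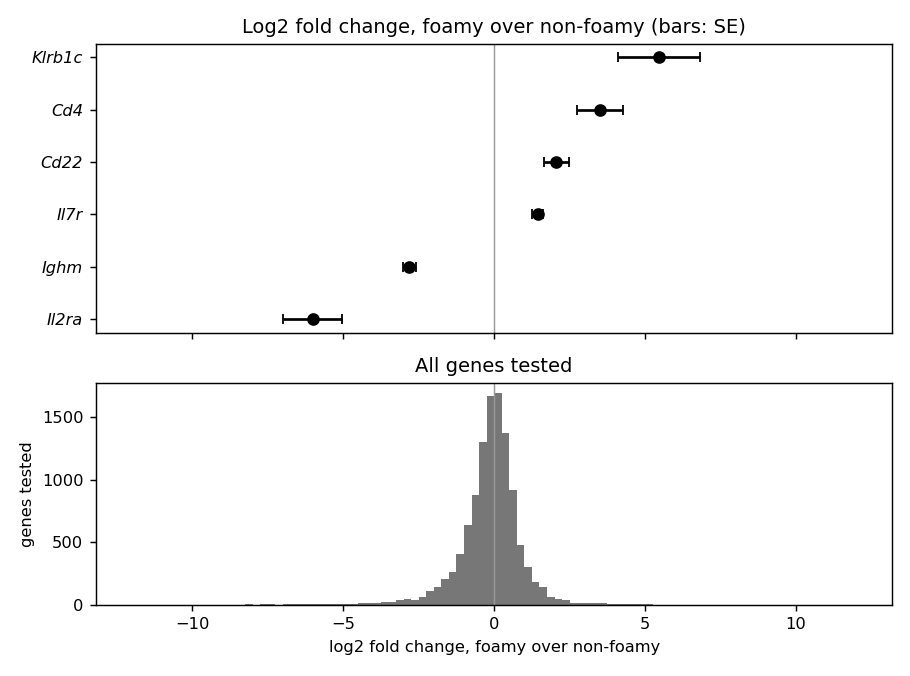
Log2 fold change of foamy over non-foamy libraries for each member, with bars for its SE (upper panel), above a histogram of the same quantity over all 11303 tested genes (lower panel). Klrb1c, Cd4, Cd22 and Il7r lie to the right of 0, and Ighm and Il2ra to the left.

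Il7r (ENSMUSG00000003882) lies on chromosome 15 from 9506161 to 9529876 on the minus strand of GRCm38, and its counts cover all exons together, as for every gene here. Foamy replicates 1 to 3 held 6974, 6774 and 8097 counts of Il7r, or 331, 377 and 437 CPM, and non-foamy replicates 1 to 3 held 2813, 2433 and 3375 counts, or 152, 134 and 133 CPM. Every foamy library was more than 2-fold above every non-foamy library, and neither group spread widely. The means were 382 ± 53.0 CPM in foamy cells and 140 ± 10.97 CPM in non-foamy cells, 2.73-fold apart (log2 fold change 1.45, SE 0.18), or 1.17 when total counts alone set the scale. In bulk libraries a larger share of cells with a transcript and more of that RNA per cell cannot be told apart, here and for every gene that follows.

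Il2ra (ENSMUSG00000026770), on the plus strand of chromosome 2 from 11642792 to 11693191, went the other way. Foamy replicates 1 to 3 held 0, 2 and 33 counts, or 0, 0.111 and 1.78 CPM, and non-foamy replicates 1 to 3 held 605, 517 and 1542 counts, or 32.8, 28.5 and 60.7 CPM. Foamy replicates 1 and 2 were under the floor of 3 counts, and nearly all foamy reads came from replicate 3. The means were 0.630 ± 0.997 CPM in foamy cells and 40.6 ± 17.5 CPM in non-foamy cells, a 64.5-fold higher mean in non-foamy (log2 fold change -6.02, SE 0.99). Without foamy replicate 3 the log2 fold change was -9.45, and without foamy replicate 1 it was -5.40. It was -7.84 by limma-voom.

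The chain that Il7r and Il2ra share was present in both populations without passing the test. Il2rg, the common gamma chain, averaged 264 ± 43.0 CPM in foamy cells and 316 ± 43.1 CPM in non-foamy cells (log2 fold change -0.26, SE 0.19, edgeR adjusted p = 0.53). Il2rb, the beta chain that the interleukin-2 receptor needs to signal, had 1, 2 and 0 counts in foamy replicates and 3, 0 and 0 counts in non-foamy replicates 1 to 3, so no library rose above the floor. Il2ra RNA in non-foamy cells was therefore measured beside Il2rg but with almost no Il2rb. Crlf2, which joins Il7r to form the receptor of the cytokine TSLP, had 70, 87 and 112 counts in foamy replicates and 36, 92 and 58 in non-foamy replicates (log2 fold change 0.61, edgeR adjusted p = 0.70). Il4ra, the interleukin-4 receptor alpha chain, had a log2 fold change of -0.62 (edgeR adjusted p = 0.26). Of 7 other receptor chains of this cytokine family 5 were tested and edgeR called none, with a median log2 fold change of -0.26, while 1 had an unadjusted p under 0.05 and DESeq2 and limma-voom called 0.

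Ligand genes, apart from Il15, were scarce or under the filter. Of 7 cytokines of the family and TSLP, 3 were tested and edgeR called none, with 1 at an unadjusted p under 0.05, 1 called by DESeq2 and 0 by limma-voom (median log2 fold change -0.38). Tslp itself, a ligand of the receptor formed by Il7r and Crlf2, had 8, 2 and 2 counts in foamy replicates and 29, 56 and 131 counts in non-foamy replicates 1 to 3. The Tslp groups did not overlap, and the gene missed the threshold (log2 fold change -3.98, SE 1.06, edgeR adjusted p = 0.054). Il15, a relative of interleukin-2 made by myeloid cells, stood between 12.6 and 17.7 CPM in foamy cells and between 17.8 and 22.7 CPM in non-foamy cells (log2 fold change -0.38, edgeR adjusted p = 0.59).

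Downstream of the receptors, 1 of 9 tested JAK, STAT and feedback genes of 10 listed fell in foamy libraries and none rose, with a median log2 fold change of -0.16. It was Socs3, a feedback inhibitor of JAK signalling induced by several cytokines, at 29.2 ± 3.78 CPM in foamy cells and 98.0 ± 18.3 CPM in non-foamy cells (log2 fold change -1.75, SE 0.24, edgeR adjusted p = 0.0016). Jak1, the kinase bound to the interleukin-7 receptor alpha chain, had a log2 fold change of -0.12 (edgeR adjusted p = 0.81), and Stat3 one of -0.16 (edgeR adjusted p = 0.81). Jak3, the kinase bound to Il2rg, had 3, 13 and 39 counts in foamy replicates and 14, 6 and 19 counts in non-foamy replicates 1 to 3.

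**Figure D3:**
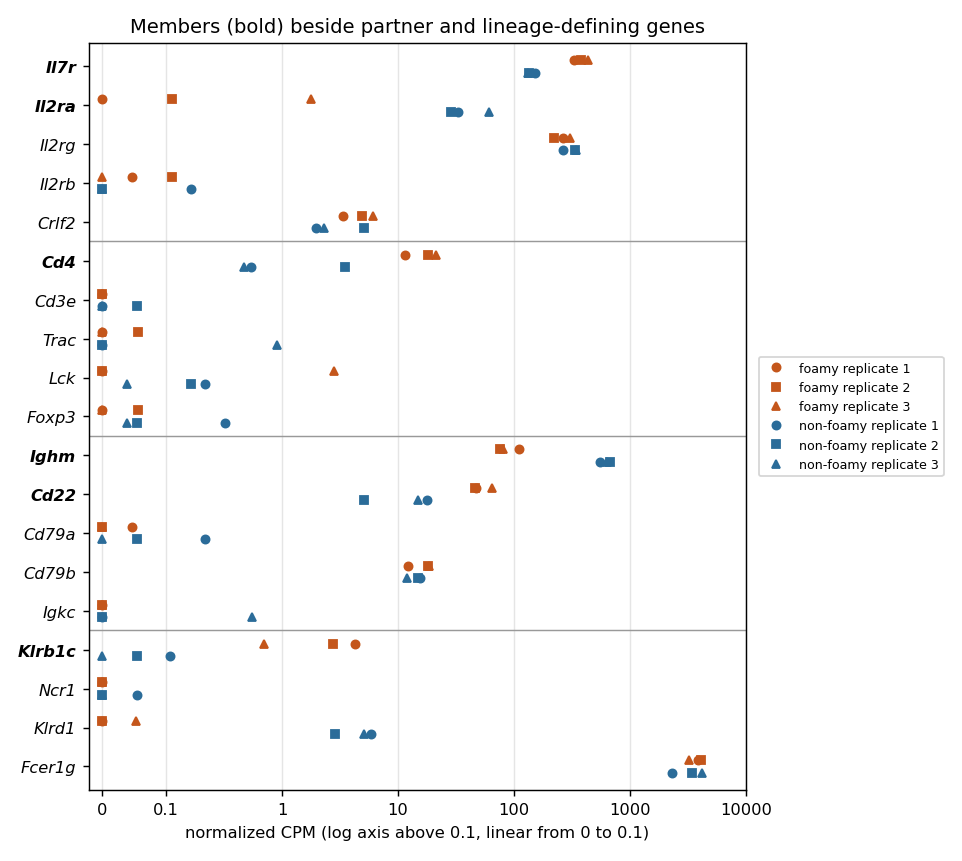
TMM-normalized CPM (horizontal axis, logarithmic above 0.1 and linear from 0 to 0.1) of the members, in bold, and of partner and lineage-defining genes, with each gene's foamy libraries above its non-foamy libraries. Il2rg and Fcer1g stand well above the floor in all 6 libraries, and Il2rb, Cd3e, Cd79a and Igkc at or near 0 in most.

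Cd4 (ENSMUSG00000023274), on the minus strand of chromosome 6 from 124864692 to 124888221, was detected in all 6 libraries. Foamy replicates 1 to 3 held 241, 327 and 397 counts, or 11.4, 18.2 and 21.4 CPM, and non-foamy replicates 1 to 3 held 10, 63 and 12 counts, or 0.542, 3.47 and 0.472 CPM. Non-foamy replicate 2 stood 7.34-fold above the lowest library of its group but below every foamy library. The means were 17.0 ± 5.09 CPM in foamy cells and 1.49 ± 1.71 CPM in non-foamy cells, 11.4-fold apart (log2 fold change 3.52, SE 0.76). Leaving out non-foamy replicate 2 gave a log2 fold change of 5.06, and limma-voom gave 4.13.

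Parts of the T cell receptor, which accompany Cd4 in helper T cells, had few or no counts in most of the same libraries, with the most in non-foamy replicate 3. Cd3e, a chain of the T cell receptor complex, had 0, 0 and 0 counts in foamy replicates and 0, 1 and 0 in non-foamy replicates 1 to 3. Trac, the constant region of the alpha chain, had 0, 1 and 0 counts in foamy replicates and 0, 0 and 23 in non-foamy replicates, and Lck, the kinase that binds the tail of CD4, had 0, 0 and 52 in foamy replicates and 4, 3 and 1 in non-foamy replicates. Non-foamy replicate 3 also held 89 counts of Cd247 and 28 of Cd3d, other chains of the complex, where the other libraries had at most 3 and 2, and Cd3g had 12, 1 and 1 counts in foamy replicates and 0, 0 and 0 in non-foamy replicates. The Lck reads of foamy replicate 3 came with no Cd3e read. Foxp3, the factor of regulatory T cells, had 0, 1 and 0 counts in foamy replicates and 6, 1 and 1 in non-foamy replicates.

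Taken over 22 T cell markers without Cd4, the summed level ran from 19.5 to 32.5 CPM in foamy cells and from 22.8 to 46.3 CPM in non-foamy cells, so the groups overlapped. Of the 4 markers tested edgeR called none (median log2 fold change 0.74), although 3 had an unadjusted p under 0.05, DESeq2 called 2 and limma-voom 1. In each library most of the summed level came from Cd28 and Cd5. Cd28, the costimulatory receptor, held 278, 360 and 235 counts in foamy replicates and 60, 69 and 4 in non-foamy replicates 1 to 3 (log2 fold change 2.68, edgeR adjusted p = 0.090). Cd5, a scavenger-type receptor of T cells and some B cells, averaged 6.27 ± 4.12 CPM in foamy cells and 19.1 ± 5.07 CPM in non-foamy cells (log2 fold change -1.61, edgeR adjusted p = 0.098). The adaptor gene Lat held 42, 19 and 17 counts in foamy replicates and 3, 1 and 1 in non-foamy replicates. Its log2 fold change was 3.88 (edgeR adjusted p = 0.090). Cd2 held 40, 86 and 4 counts in foamy replicates and 1, 287 and 2 in non-foamy replicates (log2 fold change -1.20, edgeR adjusted p = 0.77). Non-foamy replicate 2, the highest library in Cd2, also had the highest summed level. Of 8 regulatory T cell markers 3 were tested, and none was called by edgeR, DESeq2 or limma-voom or had an unadjusted p under 0.05 (median log2 fold change -1.17). Their sums were 1.61 to 5.93 CPM in foamy cells and 4.13 to 11.2 CPM in non-foamy cells.

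Among 24 kinases, phosphatases and adaptors that act beside antigen receptors, CD4 and CD22, 18 were tested, 2 rose in foamy libraries and none fell, with a median log2 fold change of -0.33. Of the 18, 8 had an unadjusted p under 0.05, and DESeq2 called 4 and limma-voom 2. Blnk, the adaptor downstream of the B cell receptor kinase Syk, averaged 351 ± 41.9 CPM in foamy cells and 202 ± 19.6 CPM in non-foamy cells (log2 fold change 0.80, SE 0.18, edgeR adjusted p = 0.024). Lat2, an adaptor of B cells, mast cells and myeloid cells, averaged 848 ± 95.6 CPM in foamy cells and 521 ± 54.6 CPM in non-foamy cells (log2 fold change 0.70, SE 0.17, edgeR adjusted p = 0.037). Both calls were lost with total counts as the only scaling (0.52 for Blnk and 0.42 for Lat2) and without foamy replicates 1 to 3 (0.72, 0.89 and 0.80 for Blnk, 0.73, 0.78 and 0.62 for Lat2). They were also lost without non-foamy replicate 2 (0.88 for Blnk and 0.71 for Lat2) or 3 (0.75 for Blnk and 0.64 for Lat2). Ptprc, which encodes the leukocyte phosphatase CD45, averaged 322 ± 23.6 CPM in foamy cells and 479 ± 36.5 CPM in non-foamy cells and missed the threshold (log2 fold change -0.57, SE 0.16, edgeR adjusted p = 0.072).

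Klrb1c (ENSMUSG00000030325), on the minus strand of chromosome 6 from 128778485 to 128789215, was the scarcest member in non-foamy cells. Foamy replicates 1 to 3 held 89, 49 and 13 counts, or 4.22, 2.73 and 0.701 CPM, and non-foamy replicates 1 to 3 held 2, 1 and 0 counts, or 0.108, 0.055 and 0 CPM. All 3 foamy libraries were above the floor and no non-foamy library was, and foamy replicate 1 stood 6.02-fold above foamy replicate 3. Over the groups, 151 counts in foamy cells and 3 counts in non-foamy cells stood in the ratio 54.4 (95% counting interval 18.3 to 267). The fitted log2 fold change was 5.47 (SE 1.37), 6.38 without non-foamy replicate 1 and 4.87 without non-foamy replicate 3, and values of this size at 3 counts depend on the constant that the fit adds to low counts. The spread within the foamy group was the widest of any member on that side, leaving out Il2ra, whose lowest foamy library was at 0.

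Relatives of Klrb1c in the natural killer gene complex had values on both sides of the comparison. Klrb1b, an inhibitory receptor of the same NKR-P1 family, had 1, 23 and 1 counts in foamy replicates and 342, 214 and 448 counts in non-foamy replicates 1 to 3. Its means were 0.461 ± 0.711 CPM in foamy cells and 15.98 ± 3.67 CPM in non-foamy cells (log2 fold change -5.12, SE 0.99, edgeR adjusted p = 0.012), and -8.13 without foamy replicate 2. Klrb1b is the nearest protein-coding neighbour of Klrb1c, 24491 bases away. Of 24 neighbouring genes of the 6 members 10 were tested, and Klrb1b was the one that passed the test.

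Klrb1a, another activating family member, had 34, 23 and 0 counts in foamy replicates and 1, 1 and 1 in non-foamy replicates, 57 against 3 counts in all (ratio 20.5, 95% counting interval 6.68 to 102). Clec2f, of the lectin family that NKR-P1 receptors bind, had 23, 18 and 6 counts in foamy replicates and 2, 1 and 0 in non-foamy replicates, 47 against 3 counts (ratio 16.9, 95% counting interval 5.45 to 85.0). Both were under the filter and got no test, and near-identical copies in this complex can share reads. Klrb1f had 0, 0 and 22 counts in foamy replicates and 2, 0 and 61 in non-foamy replicates. Klrb1 was at 0 in all 6 libraries.

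Of 18 listed relatives, ligands and neighbouring receptors, 5 were tested, 2 fell in foamy libraries and none rose (median log2 fold change -4.34). Besides Klrb1b this was Klrd1, the CD94 chain of natural killer receptors, with 0, 0 and 1 counts in foamy replicates and 107, 52 and 129 in non-foamy replicates 1 to 3 (edgeR adjusted p = 0.0052). Its counts stood in the ratio 267 in favour of non-foamy libraries (95% counting interval 47.5 to 10568). The fitted log2 fold change was -7.59, and -9.53 without foamy replicate 3. Klrk1, the activating receptor NKG2D, had 25, 0 and 0 counts in foamy replicates and 176, 56 and 313 in non-foamy replicates (log2 fold change -4.34, SE 1.33, edgeR adjusted p = 0.090).

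**Figure D4:**
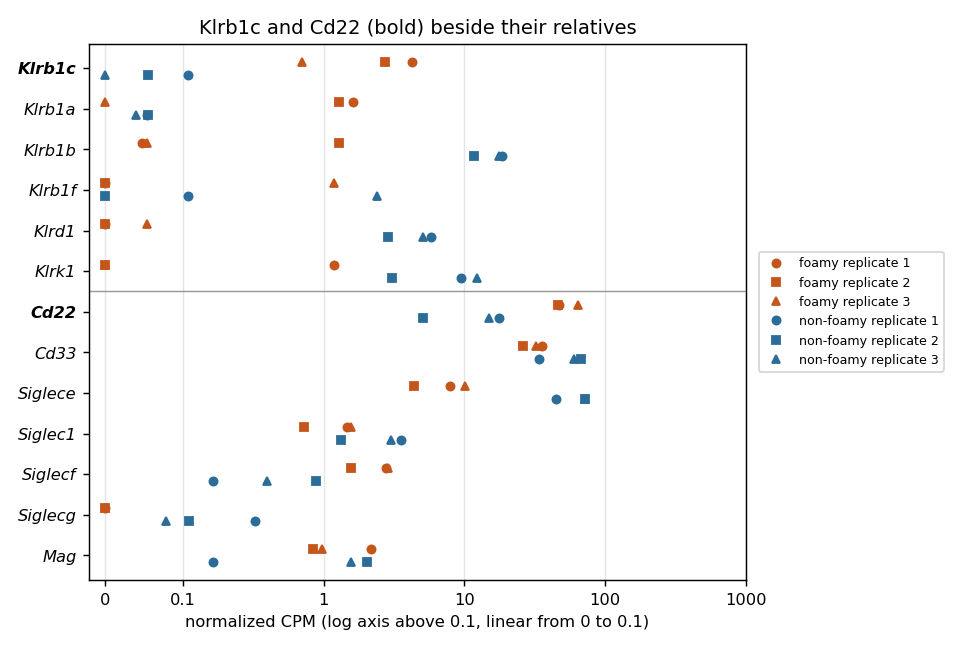
TMM-normalized CPM (horizontal axis, logarithmic above 0.1 and linear from 0 to 0.1) of Klrb1c and Cd22, in bold, and of relatives of each, with foamy libraries above non-foamy libraries. Klrb1c lies higher in foamy libraries and Klrb1b, Klrd1 and Klrk1 in non-foamy libraries, and Cd22 and Siglece stand apart in opposite directions.

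Natural killer cell markers were low in the foamy libraries. Over 16 natural killer markers without Klrb1c the summed level ran from 0.108 to 2.71 CPM in foamy cells and from 6.33 to 17.6 CPM in non-foamy cells, and 8 of the 16 had at most 3 counts in every library. The sums were 2.71, 0.223 and 0.108 CPM in foamy replicates 1 to 3, so between the groups Klrb1c was higher where the sum was lower, while within the foamy group both had the same library order. Ncr1, a defining receptor of natural killer cells, had 0, 0 and 0 counts in foamy replicates and 1, 0 and 0 in non-foamy replicates 1 to 3. Nkg7, a granule protein gene, had 18, 0 and 0 counts in foamy replicates and 0, 1 and 1 in non-foamy replicates, and the chemokine gene Xcl1 11, 0 and 0 in foamy replicates and 0, 2 and 1 in non-foamy replicates. Foamy replicate 1, highest in Klrb1c, thus held nearly all reads of both. What part natural killer cells had in the Klrb1c counts was not tested. Of 2 markers tested 1 fell, Klrd1, and none rose (median log2 fold change -5.97). Fcer1g, an adaptor chain that NK1.1 uses to signal, averaged 3723 ± 451 CPM in foamy cells and 3314 ± 928 CPM in non-foamy cells (log2 fold change 0.17, SE 0.22, edgeR adjusted p = 0.77). Tyrobp, the related adaptor DAP12, had a log2 fold change of 0.56 (edgeR adjusted p = 0.28). Of 4 such adaptors 3 were tested and edgeR called none, with 1 at an unadjusted p under 0.05 and 0 called by DESeq2 or limma-voom (median log2 fold change 0.56).

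Cd22 (ENSMUSG00000030577), on the minus strand of chromosome 7 from 30865402 to 30880342, was well above the floor in every library. Foamy replicates 1 to 3 held 984, 829 and 1197 counts, or 46.7, 46.2 and 64.6 CPM, and non-foamy replicates 1 to 3 held 326, 92 and 379 counts, or 17.7, 5.06 and 14.9 CPM. Non-foamy replicate 2 was the lowest library, and the lowest foamy value was more than 2-fold above the highest non-foamy value. The means were 52.5 ± 10.5 CPM in foamy cells and 12.5 ± 6.62 CPM in non-foamy cells, 4.18-fold apart (log2 fold change 2.06, SE 0.41). An annotated antisense gene, Gm29439, shares 479 exon bases with Cd22 and had 0 counts in all 6 libraries. Whether the counting used strand is not given in the sources used here, and without strand the reads of such a pair cannot be told apart.

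Beside Cd22 stood the other Siglec genes. Of 8 listed, 5 were tested, 1 fell in foamy libraries and none rose, with a median log2 fold change of -0.79. Siglece, an inhibitory Siglec of mouse myeloid cells, averaged 7.47 ± 2.89 CPM in foamy cells and 63.3 ± 15.7 CPM in non-foamy cells (log2 fold change -3.08, SE 0.36, edgeR adjusted p = 0.00064). Cd33 had a log2 fold change of -0.79 (edgeR adjusted p = 0.17) and Siglec1, the macrophage sialoadhesin, of -1.05 (edgeR adjusted p = 0.59). Siglecf, best known from eosinophils and alveolar macrophages, had 58, 28 and 53 counts in foamy replicates and 3, 16 and 10 in non-foamy replicates (log2 fold change 2.31, edgeR adjusted p = 0.24); it is named here after its values were seen.

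CD22 binds sialic acid, and of its enzymes and transporter 9 were listed and 9 tested, with 1 lower in foamy libraries, none higher and a median log2 fold change of -0.04. Of the 9, 4 had an unadjusted p under 0.05, and DESeq2 called 4 and limma-voom 1. St3gal6, which attaches sialic acid in an alpha-2,3 linkage, not the alpha-2,6 linkage that CD22 prefers, averaged 16.4 ± 5.42 CPM in foamy cells and 159 ± 15.2 CPM in non-foamy cells (log2 fold change -3.28, SE 0.28, edgeR adjusted p = 7.1e-05). St6gal1, which makes the alpha-2,6 linkage, missed the threshold (log2 fold change -1.21, edgeR adjusted p = 0.11). Of the molecules that CD22 acts through in B cells, the phosphatase gene Ptpn6 averaged 165 ± 29.5 CPM in foamy cells and 207 ± 23.0 CPM in non-foamy cells (log2 fold change -0.33, edgeR adjusted p = 0.43). The kinase gene Lyn averaged 171 ± 25.4 CPM in foamy cells and 240 ± 52.5 CPM in non-foamy cells (log2 fold change -0.49, edgeR adjusted p = 0.23).

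Ighm (ENSMUSG00000076617), on the minus strand of chromosome 12 from 113418950 to 113422730, was the most abundant member in non-foamy cells. Foamy replicates 1 to 3 held 2346, 1363 and 1482 counts, or 111, 75.9 and 79.9 CPM, and non-foamy replicates 1 to 3 held 10251, 12327 and 16282 counts, or 555, 678 and 641 CPM. Each group was narrow, with the highest library 1.47-fold above the lowest in foamy cells and 1.22-fold in non-foamy. The means were 89.1 ± 19.4 CPM in foamy cells and 625 ± 63.2 CPM in non-foamy cells, a 7.02-fold higher mean in non-foamy (log2 fold change -2.81, SE 0.21), or -3.09 when total counts alone set the scale.

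No other part of an antibody was measured at a level near that of Ighm. Igkc, the kappa light chain constant region, had 0, 0 and 0 counts in foamy replicates and 0, 0 and 14 in non-foamy replicates 1 to 3, and Jchain, which links IgM into pentamers, 0, 0 and 1 in foamy replicates and 6, 0 and 1 in non-foamy replicates. Of 12 listed constant regions and the joining chain 9 were in the tables, and none passed the filter. The other genes, among them Ighd, were not analysed here. Summed, the 9 genes reached 0 to 0.111 CPM in foamy cells and 0.275 to 0.709 CPM in non-foamy cells, and 7 of the 9 had at most 3 counts in every library.

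Variable segments, which a rearranged heavy or light chain carries, were equally scarce. All 204 immunoglobulin V genes had at most 3 counts in every library, and together they had 7, 1 and 1 counts in foamy replicates and 38, 12 and 13 in non-foamy replicates 1 to 3. The 9 immunoglobulin J genes had 1, 0 and 0 counts in foamy replicates and 6, 11 and 16 in non-foamy replicates. Ighm thus had 10251 to 16282 counts in non-foamy libraries in which all V genes together had at most 38. These gene classes were taken from the annotation after the data were examined. Whether reads of rearranged V segments were lost in mapping was not tested.

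B cell genes differed among themselves. Cd79a, which carries surface IgM to the membrane, had 1, 0 and 0 counts in foamy replicates and 4, 1 and 0 in non-foamy replicates. Its partner Cd79b was present throughout, at 16.3 ± 3.56 CPM in foamy cells and 14.03 ± 1.92 CPM in non-foamy cells (log2 fold change 0.22, edgeR adjusted p = 0.82). Ms4a1, which encodes CD20, had 8, 0 and 0 counts in foamy replicates and 140, 2 and 0 in non-foamy replicates, so its reads came mostly from non-foamy replicate 1, which was the non-foamy library with the lowest Ighm CPM. Bank1, a B cell scaffold gene, had 1, 10 and 1 counts in foamy replicates and 14, 66 and 65 in non-foamy replicates, with no overlap (log2 fold change -3.38, edgeR adjusted p = 0.16). What part B cells had in the Ighm counts was not tested.

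The 18 B cell markers in the tables, of 19 listed and without Ighm and Cd22, summed to 13.1 to 19.2 CPM in foamy cells and 15.2 to 26.6 CPM in non-foamy cells, so the groups overlapped, and 7 of them had at most 3 counts in every library. Of the 2 tested none was called by edgeR, DESeq2 or limma-voom, and 1 had an unadjusted p under 0.05 (median log2 fold change -1.58). Most of the B cell sum in each library was Cd79b. It held 12.2, 18.3 and 18.4 CPM of sums of 13.1, 19.2 and 18.8 CPM in foamy replicates 1 to 3. In non-foamy replicates 1 to 3 it held 15.4, 14.8 and 11.8 CPM of 26.6, 22.7 and 15.2 CPM. What remained without Cd79b was higher in every non-foamy library than in any foamy library. Plasma cell markers, 10 in number, summed to 18.7 to 26.1 CPM in foamy cells and 8.50 to 17.8 CPM in non-foamy cells. Of 2 tested 1 rose and none fell (median log2 fold change 0.90). It was Sdc1, syndecan-1, which macrophages also express, at 15.8 ± 0.755 CPM in foamy cells and 3.77 ± 0.574 CPM in non-foamy cells (log2 fold change 2.07, SE 0.41, edgeR adjusted p = 0.013). Its call was lost without foamy replicates 1 (2.11), 2 (2.09) or 3 (2.04). Most of each plasma cell sum came from Sdc1 and Prdm1, the latter at 7.42 ± 3.43 CPM in foamy cells and 8.99 ± 5.28 CPM in non-foamy cells. The little that remained was higher in every non-foamy library than in any foamy library. Tnfrsf17 had 0, 2 and 0 counts in foamy replicates and 0, 27 and 29 in non-foamy replicates, and Irf4 0, 1 and 0 in foamy replicates and 3, 2 and 27 in non-foamy replicates.

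Of 4 genes for proteins that bind or carry IgM, 1 passed the filter, and it rose in foamy libraries (median log2 fold change 3.13). Cd5l, a macrophage protein that circulates bound to IgM, averaged 933 ± 303 CPM in foamy cells and 107 ± 24.5 CPM in non-foamy cells (log2 fold change 3.13, SE 0.28, edgeR adjusted p = 0.00013). Cd5l was thus higher where Ighm was lower. The IgM receptor gene Fcmr had 0, 0 and 0 counts in foamy replicates and 5, 0 and 0 in non-foamy replicates, and the transport receptor gene Pigr 0, 2 and 0 in foamy replicates and 7, 2 and 1 in non-foamy replicates.

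**Figure D5:**
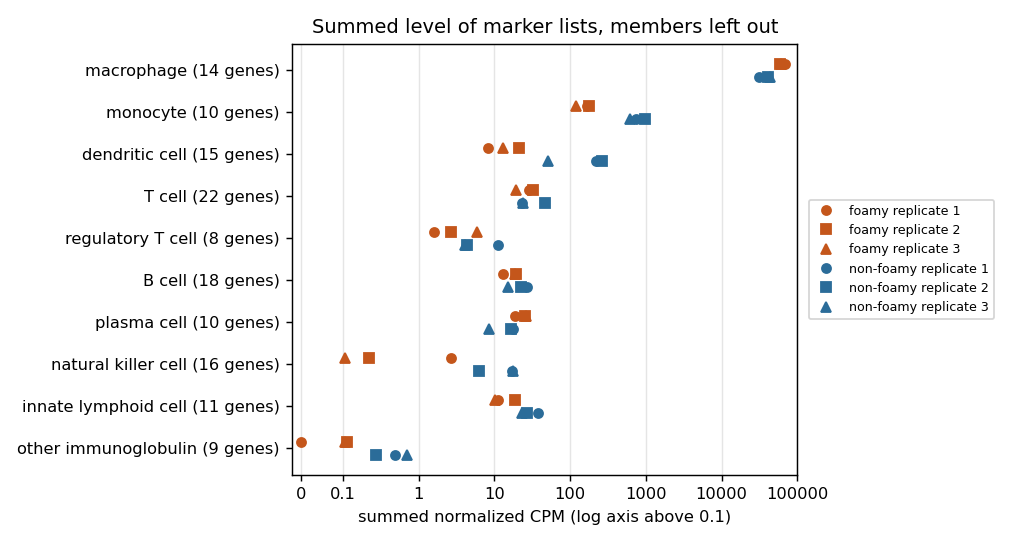
Summed TMM-normalized CPM (horizontal axis, logarithmic above 0.1 and linear below it) of marker lists, members left out, with foamy libraries above non-foamy libraries. T cell and B cell sums overlap between the groups, the B cell sum being mostly Cd79b. Natural killer, innate lymphoid, dendritic and monocyte sums are higher in all 3 non-foamy libraries.

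Markers of other cell types moved with the same contrast, and those sums are given beside the members. Monocyte markers summed to 119 to 179 CPM in foamy cells and 612 to 988 CPM in non-foamy cells, and 6 of 8 tested, of 10 listed, fell and none rose (median log2 fold change -4.26). Of these 6 calls 3 held when replicate 1 or 2 of either group was left out, and 4 when replicate 3 of either group was. Dendritic cell markers summed to 8.35 to 21.3 CPM in foamy cells and 51.0 to 267 CPM in non-foamy cells, with 1 of 4 tested, of 15 listed, lower (median log2 fold change -3.94). Both sums were thus high in the libraries in which Ighm and Il2ra were high. Ccr2, the monocyte chemokine receptor, averaged 4.37 ± 2.58 CPM in foamy cells and 257 ± 58.2 CPM in non-foamy cells (log2 fold change -5.87, SE 0.48, edgeR adjusted p = 6.1e-05). Cd209a, a lectin of monocyte-derived dendritic cells, had 4, 260 and 6 counts in foamy replicates and 3289, 4525 and 818 in non-foamy replicates (log2 fold change -4.95, edgeR adjusted p = 0.28). It made up most of the dendritic sum in non-foamy replicates 1 to 3, at 178, 249 and 32.2 of 220, 267 and 51.0 CPM. What remained was still higher there than in any foamy library. Clec9a went the other way, with 0, 22 and 33 counts in foamy replicates and 0, 0 and 0 in non-foamy replicates. Batf3 averaged 7.08 CPM in foamy cells and 7.19 CPM in non-foamy cells. Non-foamy replicate 3 was the lowest of its group in Cd209a and the highest in Il2ra. Ccl22, a chemokine of dendritic cells and macrophages, had 0, 1 and 0 counts in foamy replicates and 67, 60 and 37 in non-foamy replicates (edgeR adjusted p = 0.015), a call that did not hold when foamy replicate 1 (log2 fold change -6.36), 2 (-8.82) or 3 (-6.42) or non-foamy replicate 2 (-6.73) was left out.

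Innate lymphoid cells, which use Il7r and Il2ra, have markers that summed to 10.1 to 18.8 CPM in foamy cells and 23.1 to 38.1 CPM in non-foamy cells. Of 3 tested, of 11 listed, 2 fell and none rose (median log2 fold change -5.35). Areg, the growth factor amphiregulin, had 4, 1 and 0 counts in foamy replicates and 193, 179 and 341 in non-foamy replicates (log2 fold change -6.95, edgeR adjusted p = 0.00098), and -8.37 without foamy replicate 1. Il1rl1, the interleukin-33 receptor, had 6, 1 and 0 counts in foamy replicates and 99, 54 and 170 in non-foamy replicates (log2 fold change -5.35, edgeR adjusted p = 0.021). Leaving out foamy replicate 2 (-5.04), foamy replicate 3 (-4.80), non-foamy replicate 1 (-5.31) or non-foamy replicate 3 (-5.07) ended the call of Il1rl1, as did limma-voom (-5.80), and the value was -7.21 without foamy replicate 1. In CPM, non-foamy replicate 3 was the highest and replicate 2 the lowest of the group in Areg, Il1rl1 and Klrk1, as in Il2ra. The spread of Areg was small, at 10.5, 9.85 and 13.4 CPM in non-foamy replicates 1 to 3. Klrd1 was also lowest in replicate 2 but highest in replicate 1, at 5.80, 2.86 and 5.08 CPM. Il7r was higher in foamy libraries, where the innate lymphoid sum was lower. Mast cell and granulocyte markers summed to 1.78 to 2.48 CPM in foamy cells and 1.54 to 33.4 CPM in non-foamy cells, with 1 of 2 tested, of 11 listed, lower (median log2 fold change -4.92). That gene was S100a9, with 0, 0 and 1 counts in foamy replicates and 58, 308 and 33 in non-foamy replicates (edgeR adjusted p = 0.0077), and the call was lost without non-foamy replicate 2 (log2 fold change -6.55) and by limma-voom (-6.62), with a value of -10.17 without foamy replicate 3.

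Macrophage identity genes split, with 3 of 14 higher and 4 lower in foamy libraries and a median log2 fold change of 0.19. The 3 higher calls held with each library left out, while of the 4 lower calls 1 held when foamy replicate 2, foamy replicate 3 or the second non-foamy library was left out, 2 held without foamy replicate 1 and 3 without the third non-foamy library. Lyz2, lysozyme, had a log2 fold change of 1.26 and Csf1r, the receptor of macrophage colony-stimulating factor, one of -1.28 (edgeR adjusted p = 0.0037 for Lyz2 and 0.0043 for Csf1r). Adgre1, which encodes F4/80, averaged 483 ± 82.4 CPM in foamy cells and 857 ± 95.8 CPM in non-foamy cells. Over the 99 tested genes of all lists, 7 rose and 19 fell in foamy libraries, 26.3% against 5.41% of all tested genes. The lists were chosen with earlier results of these data known, so nothing is read from that share. What part other cell types, or monocytes within the CD64+CD11b+ gate, had in the levels of Ighm, Il2ra or any other member was not tested.

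The genes whose library profiles were most like each member came from outside the gene lists, apart from Plac8. Likeness was the root mean square difference between log2(CPM + 0.5) profiles over the 6 libraries, each centred on its own mean, and it says nothing of shared function. Nearest to Il7r were Chmp7 at 0.0885, BC049762 at 0.0959 and Zfp953 at 0.122, where the median over all tested genes was 0.876. Nearest to Cd4 were Pdzk1ip1 at 0.294, Syn1 at 0.508 and the fatty acid-binding protein gene Fabp5 at 0.547, against a median of 1.91. The 0.5 that is added draws in low genes whose own fold change is larger: BC049762 averaged 0.993 CPM in foamy cells and 0.0495 CPM in non-foamy cells with a log2 fold change of 4.18, and Zfp953 had one of 2.52.

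For Cd22 the nearest were P2ry14 at 0.237, Slc6a8 at 0.265 and Ldhb at 0.284 (median 1.31), and for Klrb1c Coil at 0.385, Jcad at 0.391 and Cdkn1c at 0.454 (median 1.36). For Ighm they were the cyclooxygenase gene Ptgs1 at 0.153, Tmem176b at 0.183 and Skint3 at 0.198 (median 1.49), of which Skint3 had no count in foamy libraries and 2.75 CPM in non-foamy libraries. Il2ra had the least close neighbours, Cdhr3 at 0.651, the monocyte marker Plac8 at 0.770 and Marcksl1 at 0.819 (median 2.87). Among the members, Il7r and Cd22 were most alike at 0.626 and Il2ra and Cd4 least alike at 4.56.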

How the data were processed

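RNA of sorted aortic intimal macrophages was measured in 3 foamy and 3 non-foamy libraries. Per the labels' protocols, the SMARTer Ultra Low kit gave the cDNA, which was read as single reads, with no molecular identifiers named. Among the tools in the submitters' processing notes are STAR 2.0.4b, featureCounts 1.4.5 and Subread, with the build GRCm38. Strandedness and the treatment of multi-mapping reads are not given in sources used here. The deposited counts are whole, unnormalized reads per gene. The deposited CPM values are the counts divided by each library's total in genes, times a constant, and the deposited RPKM values are that CPM per kilobase; both were recomputed from the counts and 0 genes differed by more than 1e-06. Deposited RPKM was used to compare levels between genes. Symbols were found for 40254 of 41388 IDs (97.26%), which held at least 99.71% of each library's counts.

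Counts were tested with edgeR 4.0.16 in R 4.3.3 (filterByExpr, TMM, robust quasi-likelihood F-test, Benjamini-Hochberg adjustment over all genes tested, threshold 0.05). Each SE was taken as the absolute log2 fold change over the root of F. TMM factors were 0.868 to 0.966 in foamy and 1.035 to 1.186 in non-foamy libraries. CPM means and SDs are TMM-normalized. Ratios at 1 to 3 counts have exact 95% intervals. Replicates differed beyond sampling noise in every pair (chi-square over its degrees of freedom 50.7 to 143). On simulated data of 10953 genes the procedure recovered 14% of 2-fold, 56% of 4-fold, 68% of 8-fold and 90% of 16-fold changes, and 4.2% of its calls were false.

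The members and the 20 gene lists were chosen with earlier results of these data known. Beside a fixed set of partner and sorting genes, the genes named from each list were up to 4 called by p and up to 2 others with the highest mean CPM, with 3 genes most like each member; other genes were named after their values were seen. A gene of the fixed set is not reported here. Alternatives were other scalings, no filter, a stricter filter (a mean of 5 CPM, and 10 counts in 3 libraries), DESeq2 1.42.0, limma-voom (limma 3.58.1), a replicate block and each library left out.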

Additional observations from a re-analysis of the deposited data

How the results depend on the processing

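No member changed direction under any of the 14 alternatives in which it was fitted, which is all but the stricter filter for Klrb1c. Of all tested genes, 611 were called (283 higher, 328 lower), against 1173 by DESeq2 (528 higher, 645 lower), 391 with the replicate number as a block, and 271 to 579 with each library left out: 346, 316 and 271 without foamy replicates 1 to 3 and 366 without non-foamy replicate 2. With total counts as the only scaling 165 were higher and 614 lower. Of the list genes 26 were called, and 16 to 24 with each library left out, 16 without foamy replicate 2 or non-foamy replicate 2. The log2 fold change of Il7r was 1.17 and that of Ighm -3.09 with total counts only. By limma-voom Il2ra was at -7.84. With each library left out, log2 fold changes ran from 1.35 to 1.55 for Il7r, -9.45 to -5.40 for Il2ra, 3.09 to 5.06 for Cd4, 4.87 to 6.38 for Klrb1c, 1.69 to 2.38 for Cd22 and -3.00 to -2.70 for Ighm. The cause of these shifts was not tested. With the replicate block the values were 1.44 for Il7r, -6.84 for Il2ra, 4.04 for Cd4, 5.56 for Klrb1c and 2.22 for Cd22, and the calls of Sdc1 (2.08), Blnk (0.79), Lat2 (0.70), Adgre1 (-0.84), Itgam (-0.87) and Vcan (-5.98) were lost. Libraries with the same number did not deviate together (correlations -0.103, -0.0286 and -0.039). With 3 libraries per group these values cannot decide whether same-numbered libraries share mice, which is not given. All 6 members were called with RLE, upper-quartile and total-count scaling and by DESeq2, 5 without a filter, by limma-voom and with the block, and 3 to 5 with a library left out. Under the stricter filter the other 5 were called. Depth limits what can be said of genes at or under the floor of 3 counts, among them Il2ra in foamy replicates 1 and 2 and Klrb1c in non-foamy libraries.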

Other observations

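T cell receptor V genes were measured in macrophage libraries that held almost no T cell receptor constant region. The 132 V genes together had 253, 193 and 256 counts in foamy replicates 1 to 3 and 114, 84 and 67 counts in non-foamy replicates 1 to 3, while the 7 constant region genes had 0, 3 and 0 counts in foamy and 8, 0 and 23 in non-foamy replicates. The reads fell on few genes, since 122 of the 132 had at most 3 counts in every library. Trav14-3 had 127, 107 and 126 counts in foamy and 70, 61 and 45 in non-foamy replicates. Trav14d-3-dv8 had 63, 51 and 79 counts in foamy and 2, 12 and 11 in non-foamy replicates, and Trav13-4-dv7 had 19, 11 and 23 in foamy and 0, 0 and 0 in non-foamy replicates. Trav3-4, Trav7-4 and B230359F08Rik had more counts in non-foamy than in foamy replicates. The foamy and non-foamy values of Trav14-3, Trav14d-3-dv8 and Trav13-4-dv7 did not overlap, as held for 25.7% of all tested genes. Near-identical copies of these genes can share or lose reads, so the split between copies is uncertain, and the genes were chosen after their values were seen, with no test.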
